A study of Sus scrofa with 4 samples.

Results

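The insulin-like growth factor (IGF) system was described here in pig (Sus scrofa) ovary by 10 genes: the ligands IGF1 and IGF2, the receptors IGF1R and IGF2R, and the binding proteins IGFBP2, IGFBP3, IGFBP4, IGFBP5, IGFBP6 and IGFBP7. They were taken by gene symbol from a table of 22309 genes. For 8 of the 10 the table itself gave the symbol. IGFBP6 was identified through its Ensembl identifier (ENSSSCG00000000261) and IGF2 (ENSSSCG00000035293) through the NCBI gene identifier in its description, since neither row carried a symbol. All 10 passed the filter on low counts, as did 13937 genes in all.

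Ovaries of sows that overexpress leptin, the fat-cell hormone that reports energy stores, were compared with WT ovaries, all in diestrus and with 2 samples in each group. The leptin overexpression sows were the second generation of a breeding scheme in which male clones of a leptin-overexpressing pig were mated with Duroc/Landrace/Yorkshire sows and their offspring intercrossed. The age of the animals, the promoter that drives leptin and the breeding of the WT sows were not given in the sources used here. Separate animals within a group are not stated in the labels, and p-values therefore cover the spread among these 4 samples, part or all of which could be technical.

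IGF1 and IGF2 are secreted growth factors. Both signal through IGF1R, a receptor tyrosine kinase that activates the PI3K-AKT and RAS-MAPK cascades, whereas IGF2R binds IGF2 and carries it to lysosomes. The binding proteins hold the ligands outside cells and are cleaved by proteases such as PAPPA, which frees the ligand. In the follicle, IGFs are known to act with gonadotropins on granulosa and theca cells, and IGFBP2, IGFBP4 and IGFBP5 are known in pigs and cattle as inhibitors that decline as a follicle becomes dominant. In a whole ovary, fewer cells of a type and less RNA per cell cannot be told apart.

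Library totals ran from 16493113 to 16797511 counts. LEP had 55 and 124 counts in the leptin overexpression libraries, against 0 and 3 in the WT libraries, the direction the labels give. The libraries did not pair by genotype. Across genes, which are no independent replicates, Pearson correlations ran from 0.856 (leptin overexpression replicate 2 with WT replicate 1) to 0.941 (leptin overexpression replicate 1 with WT replicate 2), with 0.936 between the leptin overexpression libraries and 0.917 between the WT libraries. Ovarian markers were present, with counts for all 10 granulosa, all 8 theca and all 8 luteal markers. The summed level of the luteal markers was 41957 and 46198 CPM (counts scaled to a common library total) in leptin overexpression, against 20646 in WT replicate 1 and 44459 in WT replicate 2. The markers of surface and oviduct epithelium summed to 6.40 and 68.5 CPM in leptin overexpression and 522 and 280.2 CPM in WT. EPCAM alone was at 57.15 CPM in leptin overexpression replicate 2.

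The IGF system of these ovaries was made up mainly of binding protein messages, and IGFBP7 was the most abundant of them in every library. Levels of different genes are compared in FPKM, which is scaled to transcript length. IGFBP7, a protein of vessels and stroma with low affinity for IGFs, was at 428 and 321 FPKM in leptin overexpression and 367 and 391 FPKM in WT. It lay above the next gene, IGFBP4, without overlap. The mean over all 4 libraries was 377 ± 44.9 FPKM for IGFBP7, 151 ± 64.3 for IGFBP4, 112 ± 73.0 for IGFBP3, 66.2 ± 17.5 for IGFBP2, 29.4 ± 37.4 for IGFBP5, 23.2 ± 11.3 for IGF2R, 15.6 ± 7.44 for IGF2, 12.5 ± 5.41 for IGFBP6, 7.36 ± 3.43 for IGF1R and 2.87 ± 1.41 for IGF1 (SD over 4 libraries of both genotypes). Below IGFBP7, every pair of neighbours in this order had overlapping ranges. IGF2R was nevertheless above IGF2, and IGFBP6 above IGF1R, in 4 of 4 libraries. IGFBP1, the remaining classical binding protein, is not one of the 10 and had 0 counts in all 4 libraries, which allows up to 0.136 to 0.224 CPM (3 counts; counting error only). IGFBP1 and IGFBP3 are adjacent protein-coding genes in the RefSeq annotation of Sscrofa11.1, as are IGFBP2 and IGFBP5.

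**Figure D1:**
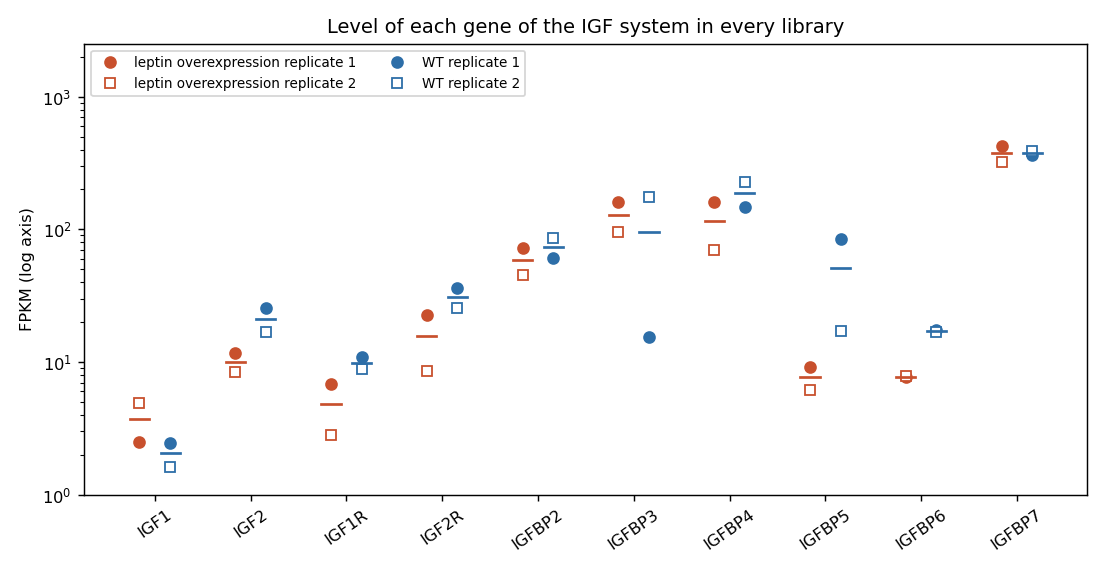
FPKM (log axis) of the 10 genes in each library, with leptin overexpression (red) left of WT (blue); filled circles are replicate 1, open squares replicate 2 and bars the group means. IGFBP7 is highest in all 4 libraries, and IGFBP3 and IGFBP5 show the widest gap between the WT libraries.

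None of the 10 genes passed the test between genotypes. LEP, the overexpressed gene, did not pass it either (edgeR adjusted p = 0.198). With edgeR's quasi-likelihood test and Benjamini-Hochberg adjustment over all 13937 genes, 0 of the 10 had an adjusted p under 0.05. Of all genes, 4 did (0.0287%). At an unadjusted p under 0.05 the test gave 1 of the 10, IGFBP5, beside 563 genes higher and 741 lower of all 13937. DESeq2, limma-voom and the other alternatives that kept all 4 libraries gave 1 to 5 of the 10. The 5 came from both limma-trend fits on FPKM, where 290 and 293 of all 13937 genes were higher and 1745 and 1789 lower. Levels of one gene across libraries are given below as CPM scaled by TMM factors, and fold changes as leptin overexpression minus WT on the log2 scale with a standard error (SE). The median log2 fold change of the 10 was -0.43, beside -0.01 over all tested genes, but it was 0.03 without WT replicate 2 and -0.03 without leptin overexpression replicate 2. In CPM the groups did not overlap for 6 of the 10. IGF1 and IGFBP7 were higher in both leptin overexpression libraries than in either WT library, a pattern shown by 22.2% of all tested genes, and IGF2, IGF1R, IGF2R and IGFBP5 were lower in both, as were 22.9% of all tested genes. The authors' FPKM values are not corrected for the shift that TMM factors take out (0.925 and 0.809 in leptin overexpression, 1.34 and 0.998 in WT). In FPKM, only IGF1 was higher without overlap (6.85% of all tested genes) and 5 genes, IGF2, IGF1R, IGF2R, IGFBP5 and IGFBP6, were lower (39.7%). On log2(FPKM + 1) the median of all tested genes was -0.30, and that of the 10 genes was -0.88.

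**Figure D2:**
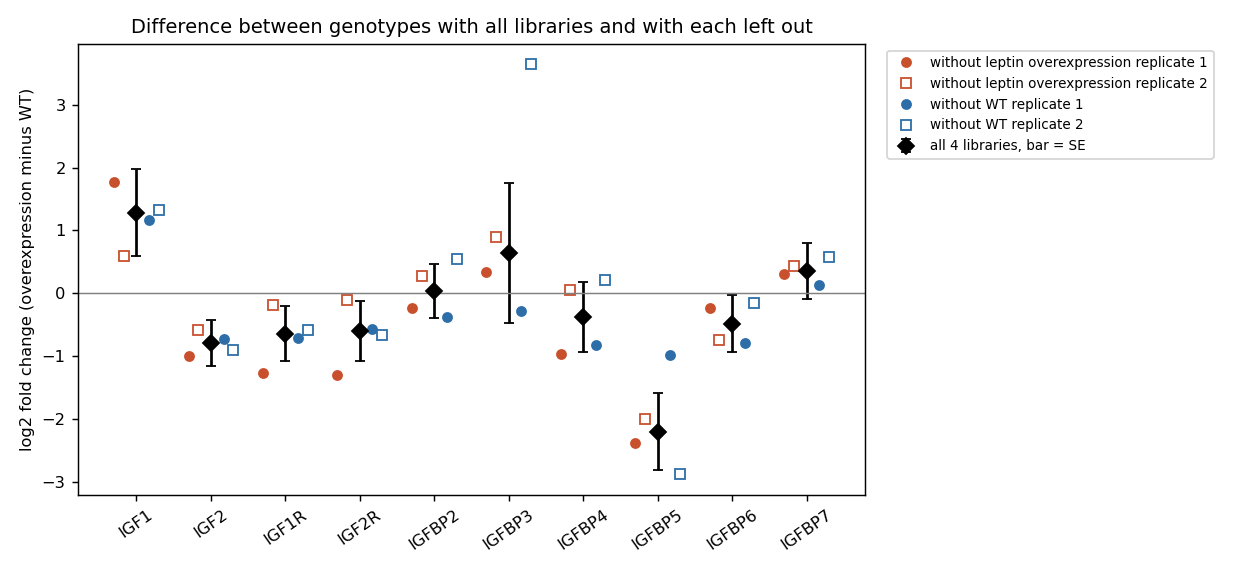
Log2 fold change (leptin overexpression minus WT) of each gene with all 4 libraries (black diamonds, bars are SE) and with each library left out (coloured points). IGFBP3 runs from -0.28 without WT replicate 1 to 3.64 without WT replicate 2, while IGF2 is below 0 in every fit.

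The ligands had opposite signs. IGF1 (ENSSSCG00000000857), the ligand with the higher affinity for IGF1R, was at 2.87 and 6.50 CPM in leptin overexpression and 1.82 and 2.03 CPM in WT. It was the gene with the fewest reads, 44 and 87 counts in leptin overexpression and 40 and 34 in WT. Leptin overexpression replicate 2 alone stood above WT beyond counting error: its exact Poisson 95% interval was 5.21 to 8.02 CPM, while that of leptin overexpression replicate 1, 2.09 to 3.86 CPM, overlapped those of WT replicate 1 (1.3 to 2.47) and WT replicate 2 (1.41 to 2.84). Poisson intervals cover counting error only. The log2 fold change of IGF1 was 1.28 (SE 0.69, edgeR adjusted p = 0.58), and 0.59 without leptin overexpression replicate 2.

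IGF2, the ligand that IGF2R removes, was at 36.9 and 27.6 CPM in leptin overexpression and 59.0 and 52.5 CPM in WT. Both leptin overexpression libraries were below both WT libraries, by a log2 fold change of -0.79 (SE 0.36, edgeR adjusted p = 0.548). Its sign was negative under every alternative setting tried, between -1.06 and -0.58. The ratio of IGF1 to IGF2 in FPKM was 0.214 and 0.584 in leptin overexpression and 0.0970 and 0.0961 in WT. IGF2 thus exceeded IGF1 in all 4 libraries, and the ratio was higher in both leptin overexpression libraries than in either WT library. In FPKM the WT ratios were nearly equal and the leptin overexpression ratios were far apart. In CPM the ratio was 0.0779 and 0.236 in leptin overexpression and 0.0308 and 0.0387 in WT, where the WT ratios were less alike. The WT ratios rest on 40 and 34 counts of IGF1. The ratio was given no test; the smallest p of an exact permutation test with 2 samples against 2 is 0.333. INS, which follows IGF2 in the RefSeq annotation of Sscrofa11.1, had 0 counts in all 4 libraries.

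The receptors followed each other across libraries. IGF1R (ENSSSCG00000030560) was at 47.3 and 22.1 CPM in leptin overexpression and 51.6 and 56.4 CPM in WT (log2 fold change -0.64, SE 0.43, edgeR adjusted p = 0.629). IGF2R (ENSSSCG00000004044) was at 214 and 93.1 CPM in leptin overexpression and 239 and 225 CPM in WT (log2 fold change -0.59, SE 0.48, edgeR adjusted p = 0.676). For both genes, leptin overexpression replicate 2 was low and leptin overexpression replicate 1 was close to WT. Without leptin overexpression replicate 2 the log2 fold changes were -0.18 for IGF1R and -0.10 for IGF2R, and without leptin overexpression replicate 1 they were -1.27 and -1.30. The ratio of IGF1R to IGF2R in FPKM was 0.305 and 0.328 in leptin overexpression and 0.301 and 0.348 in WT. These ranges overlapped, and the ratio moved less than either receptor.

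With all 4 libraries, IGFBP5 had the largest difference of the 10 genes; without WT replicate 1 that of IGF1 was larger (1.17), as was that of IGFBP3 without WT replicate 2 (3.64). This binding protein attaches to extracellular matrix and is expressed by stromal, muscle and follicle cells. IGFBP5 (ENSSSCG00000025924) was at 60.0 and 46.1 CPM in leptin overexpression and 382 and 103 CPM in WT, or 9.24 and 6.20 FPKM against 85.1 and 17.1 FPKM. Both leptin overexpression libraries were below both WT libraries, and WT replicate 1 was well above WT replicate 2. Group means were 53.0 ± 9.83 CPM in leptin overexpression and 243 ± 198 CPM in WT (SD, n = 2 each). The log2 fold change was -2.19 (SE 0.61), with an unadjusted p of 0.0063 and an edgeR adjusted p of 0.299 that did not pass.

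Whether IGFBP5 was called depended on the tool and on 1 library. DESeq2 called it lower (adjusted p = 0.0127), as it did 1.47% of all genes. DESeq2 called 0 of the 10 genes higher, against 0.718% of all genes. edgeR with no filter on low counts called it lower (adjusted p = 0.027; 0.939% of genes). limma-trend did so on log2(FPKM + 1) (adjusted p = 1.34e-04; 2.68% of genes) and on log2(FPKM + 0.1) (adjusted p = 9.22e-05; 2.86% of genes). limma-voom did not (adjusted p = 0.544). With WT replicate 1 left out, its log2 fold change was -0.98 (edgeR adjusted p = 0.904), and without WT replicate 2 it was -2.87 and passed (adjusted p = 2.31e-05, with 2.86% of genes lower and 1.75% higher in that fit). Over all alternatives the adjusted p of IGFBP5 ran from 2.31e-05 to 1.

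Most markers of several cell types also had negative log2 fold changes, and their part in the IGFBP5 values was not tested. Of 9 smooth muscle and pericyte markers tested, 8 had lower values and 7 were lower without overlap between the groups, beside 22.9% of all tested genes, and their summed level was 1136 and 1093 CPM in leptin overexpression and 1675 and 1853 CPM in WT. MYH11, the smooth muscle myosin, was at 69.9 and 107 CPM in leptin overexpression and 421 and 231 CPM in WT. RGS5, the marker that went the other way, was at 368 and 276 CPM in leptin overexpression and 212 and 325 CPM in WT. Of 7 tested epithelial markers 6 had lower values without overlap (beside the same 22.9%), with FOXJ1 and KRT18 at 0 in leptin overexpression replicate 1. EPCAM went the other way with overlapping groups (log2 fold change 0.52). It was at 2.55 and 57.15 CPM in leptin overexpression and 33.8 and 7.76 CPM in WT. Of 9 leukocyte markers 7 had lower values (5 without overlap, beside the same 22.9%, median -0.91). Their sums were 122 and 107 CPM in leptin overexpression and 201 and 192 CPM in WT. Of 11 endothelial markers 10 had lower values, but only 2 of them without overlap, beside the same 22.9% of all tested genes. The endothelial median was -0.47, and it was -0.07 without WT replicate 2 and -1.36 without leptin overexpression replicate 1. Oocyte markers summed to 21.7 and 24.9 CPM in leptin overexpression, against 144 CPM in WT replicate 1 and 24.0 CPM in WT replicate 2. Of 8 stromal fibroblast markers 5 had positive and 3 negative values (median 0.15). Their sums, 11855 and 7536 CPM in leptin overexpression and 6982 and 6523 CPM in WT, consisted mainly of the collagen COL3A1, at 8659 and 4989 CPM in leptin overexpression and 3652 and 4568 CPM in WT. No marker in these lists passed the test.

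IGFBP3, the main carrier of IGFs in blood and known as a product of endothelial cells, was set apart by WT replicate 1. The table held it as an assembled gene (MSTRG.9376) that its description names as the IGFBP3 precursor. It was at 417 and 285 CPM in leptin overexpression, against 27.8 CPM in WT replicate 1 and 422 CPM in WT replicate 2. WT replicate 2 was the highest library and WT replicate 1 the lowest, so the groups overlapped. The log2 fold change was 0.64 (SE 1.11, edgeR adjusted p = 0.858). Without WT replicate 1 it was -0.28, and without WT replicate 2 it was 3.64, a fit that holds none of the spread within WT. The luteal marker sum was lowest in the same library. LEPR, the leptin receptor, was likewise lowest in WT replicate 1 and highest in WT replicate 2, at 15.5 and 21.5 CPM in leptin overexpression, 2.63 CPM in WT replicate 1 and 26.5 CPM in WT replicate 2. Endothelial markers summed to 1059 and 512 CPM in leptin overexpression, 828 CPM in WT replicate 1 and 1567 CPM in WT replicate 2. The part of luteal and endothelial cells in the IGFBP3 values was not tested.

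In CPM, the other binding proteins differed less between genotypes than between the WT libraries. IGFBP4 (ENSSSCG00000017472), the PAPPA substrate of follicular fluid, was at 719 and 358 CPM in leptin overexpression and 460.2 and 943 CPM in WT (log2 fold change -0.38, SE 0.56, edgeR adjusted p = 0.824). The groups overlapped, and the sign turned to 0.21 without WT replicate 2 and 0.05 without leptin overexpression replicate 2. IGFBP2 (ENSSSCG00000035392), which granulosa cells secrete, was at 112 and 79.3 CPM in leptin overexpression and 64.5 and 122 CPM in WT (log2 fold change 0.03, SE 0.43, edgeR adjusted p = 0.983). Its sign also turned with the scaling, to -0.04 with upper-quartile factors and -0.33 on log2(FPKM + 1). Relative to the median of all genes in those fits, the differences were 0.07 and -0.03.

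IGFBP6, which prefers IGF2 over IGF1, was at 8.81 and 12.6 CPM in leptin overexpression and 11.6 and 18.2 CPM in WT (log2 fold change -0.48, SE 0.45, edgeR adjusted p = 0.721). In FPKM its groups were tighter and did not overlap, at 7.76 and 7.80 FPKM in leptin overexpression and 17.4 and 16.9 FPKM in WT. In FPKM, 39.7% of all tested genes were lower without overlap. The length that counts and FPKM imply for IGFBP6 also differed, at 1050 and 1300 bases in leptin overexpression and 888 and 1077 bases in WT. The counts were 135 and 168 in leptin overexpression and 255 and 305 in WT. IGFBP7 (ENSSSCG00000008913) was at 634 and 578 CPM in leptin overexpression and 397 and 547 CPM in WT (log2 fold change 0.36, SE 0.45, edgeR adjusted p = 0.79). On log2(FPKM + 1) its difference was -0.03, or 0.27 above the median of all genes, so the raw sign turned with the scaling and the sign relative to the median did not.

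IGFBP3 and IGFBP5 took other shares of the binding protein messages in WT replicate 1 than in the other 3 libraries. IGFBP7 took 51.0% and 58.8% of the summed IGFBP FPKM in leptin overexpression and 52.9% and 42.8% in WT. IGFBP4 took 19.1% and 12.8% in leptin overexpression and 21.3% and 24.8% in WT. IGFBP2 kept to a narrow range, at 8.70% and 8.26% in leptin overexpression and 8.74% and 9.42% in WT. In FPKM, the shares of IGFBP2, IGFBP4, IGFBP5 and IGFBP6 were lower in both leptin overexpression libraries than in either WT library, those of IGFBP2 by little. In CPM this held for IGFBP5 only. There the shares of IGFBP4 and IGFBP6 overlapped between groups, and that of IGFBP2 was higher in both leptin overexpression libraries. The mean difference was -0.601 percentage points for IGFBP2, but 0.549 when shares were taken in CPM; for IGFBP6 it was -1.0 in FPKM and -0.165 in CPM, and for IGFBP5 -5.95 with all libraries and -0.756 without WT replicate 1. In WT replicate 1, IGFBP5 took 12.3% and IGFBP3 took 2.23%. In the other 3 libraries IGFBP3 took 19.2% and 17.6% in leptin overexpression and 19.2% in WT replicate 2, and IGFBP5 took 1.10% and 1.14% in leptin overexpression and 1.88% in WT replicate 2. Summed IGFBP FPKM was 839 and 546 in leptin overexpression and 694 and 913 in WT, with overlapping groups. Summed ligand FPKM was 14.2 and 13.3 in leptin overexpression and 27.9 and 18.5 in WT. The ratio of summed IGFBP to summed ligand FPKM was 59.1 and 41.1 in leptin overexpression and 24.8 and 49.4 in WT, so these groups overlapped as well.

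**Figure D3:**
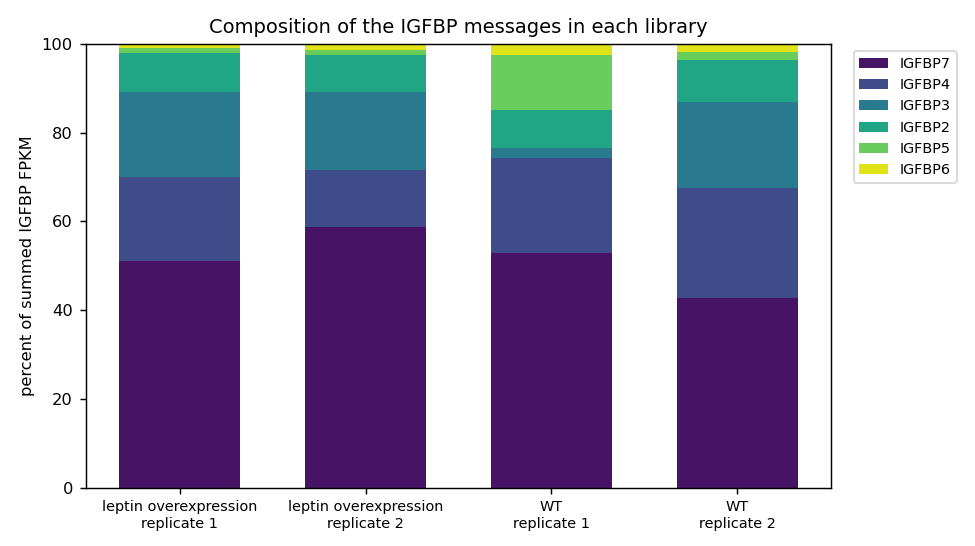
Share of each binding protein in the summed IGFBP FPKM, in percent, for the 2 leptin overexpression libraries (left) and the 2 WT libraries (right). In WT replicate 1, IGFBP5 takes 12.3% and IGFBP3 takes 2.23%.

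Likeness between genes was measured as the root mean square (RMS) difference of log2 CPM, each gene centred on its own mean, over the 4 libraries. IGF1R and IGF2R were the closest pair of the 10 genes (RMS 0.085), followed by IGFBP2 with IGFBP7 (0.255) and IGF2 with IGF1R (0.262). The farthest pair was IGFBP3 with IGFBP5 (2.73). In WT replicate 1, IGFBP3 was at -2.79 and IGFBP5 at 1.90 relative to their means. Among 10446 other genes with a symbol and a mean of at least 5 CPM, IGF1 was closest to ZC3H8 (0.024), ANO3 (0.026) and GCA (0.028). IGF2 was closest to DOK1 (0.016), ZCCHC24 (0.033) and SERPINB1 (0.035), and IGFBP5 to SLC46A2 (0.166), HK3 (0.231) and MYH14 (0.235). These are descriptions over 4 libraries, a number at which many genes share a pattern.

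**Figure D4:**
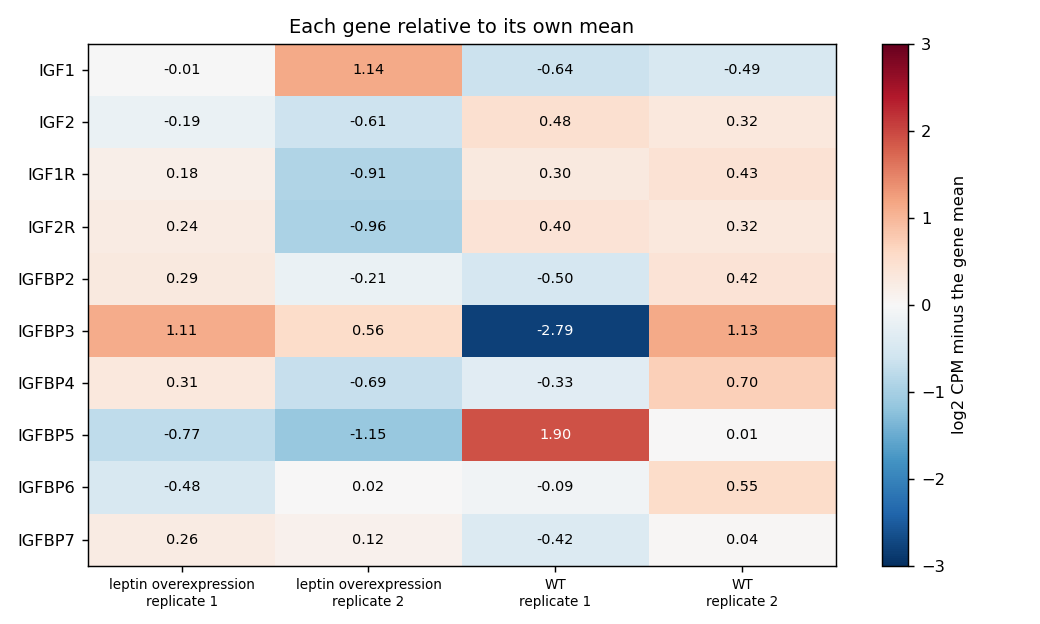
Log2 CPM of each gene minus its mean over the 4 libraries, with leptin overexpression in the left columns and WT in the right columns. The strongest departures are IGFBP3 (-2.79) and IGFBP5 (1.90) in WT replicate 1.

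Genes that work with the IGF system were read from 8 lists of 109 genes, of which 91 were tested and 0 passed in either direction, beside 0.0287% of all genes; 38 had positive and 53 negative log2 fold changes. Of 19 tested IGFBP proteases, inhibitors and carriers, 5 had positive and 14 negative values (median -0.18, beside -0.01 over all tested genes); the median was -0.75 without leptin overexpression replicate 1 and -0.02 without WT replicate 2. Among the most abundant were TIMP1, a metalloprotease inhibitor, at 8480 and 8105 CPM in leptin overexpression and 4310 and 9676 CPM in WT; CTSD, a lysosomal protease, at 1192 and 716 CPM in leptin overexpression and 956 and 1095 CPM in WT; and PLAT, a plasminogen activator, at 479 and 195 CPM in leptin overexpression and 147 and 1074 CPM in WT.

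Genes named after their values were seen were PAPPA, PAPPA2, STC1, GRB14 and CCN3. PAPPA, the protease that cleaves IGFBP4 and IGFBP5, was at 23 and 29.8 CPM in leptin overexpression and 39.0 and 17.1 CPM in WT, with overlapping groups. Its relative PAPPA2 was at 0.196 and 0.598 CPM in leptin overexpression and 6.31 and 1.01 CPM in WT. STC1, which inhibits PAPPA, was at 25.3 and 48.7 CPM in leptin overexpression and 8.44 and 24.9 CPM in WT, the lowest leptin overexpression value lying just above the highest WT value. With all libraries, none of these 3 passed (edgeR adjusted p = 0.956, 0.422 and 0.564). The log2 fold change of PAPPA2, a gene at low levels, was -3.2 with all libraries and -4.02 without WT replicate 2. That fit kept only WT replicate 1, the WT library farther from leptin overexpression.

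In the receptor signalling list, 12 of 28 tested genes had positive and 16 negative values (median -0.13, and -0.27 to -0.06 with a library left out). SHC1, an adaptor that links the receptor to RAS, was at 139 and 88.4 CPM in leptin overexpression and 120.5 and 159 CPM in WT. Its partner GRB2 was at 95.6 and 97.3 CPM in leptin overexpression and 87.9 and 88.7 CPM in WT. AKT1, the kinase downstream of PI3K, was at 116 and 82.7 CPM in leptin overexpression and 133 and 142 CPM in WT. FOXO1, a transcription factor that AKT holds inactive, was at 85.8 and 69.7 CPM in leptin overexpression and 101 and 125 CPM in WT. GRB14, an adaptor that inhibits the insulin receptor, was at 67.1 and 145 CPM in leptin overexpression and 21.6 and 44.9 CPM in WT (edgeR adjusted p = 0.353). It was called higher by edgeR with no filter on low counts (adjusted p = 0.0446, as were 0.47% of all genes). The log2 fold change of GRB14 was 1.68 with all libraries and 2.27 without WT replicate 2. That fit kept only WT replicate 1, the WT library farther from leptin overexpression. In the RAS-MAPK arm, 3 of 12 were positive and 9 negative (median -0.13, and -0.27 to -0.01 with a library left out), with MAPK3 at 233 and 149 CPM in leptin overexpression and 169 and 189 CPM in WT.

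All 7 tested genes of the growth hormone axis, which drives IGF1 in liver, had positive values (median 0.32), and 1 of them, the receptor GHR, did not overlap between groups (beside 22.2% of all tested genes that were higher without overlap), at 11 and 12.8 CPM in leptin overexpression and 8.98 and 10.5 CPM in WT. The median was 0.06 without WT replicate 1, 0.05 without leptin overexpression replicate 1 and 0.91 without WT replicate 2. SOCS3, a feedback inhibitor, was at 479 and 131 CPM in leptin overexpression and 55.7 and 298 CPM in WT. Its log2 fold change was 0.79 with all libraries and 2.44 without WT replicate 2. That fit kept only the lower WT library, and the WT library left out lay between the leptin overexpression values. STAT5B was at 102 and 83.1 CPM in leptin overexpression and 69.7 and 97.0 CPM in WT, STAT5A at 56.2 and 47.3 CPM in leptin overexpression and 43.0 and 49.1 CPM in WT, and SOCS1 at 48.4 and 15.2 CPM in leptin overexpression and 11.9 and 17.8 CPM in WT. These 4 groups of values overlapped.

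IGF mRNA-binding proteins, which stabilise IGF2 and other messages mainly in embryos, were at low levels. IGF2BP1, LIN28A and LIN28B had 0 counts in every library, IGF2BP3 was at 1.24 and 1.64 CPM in leptin overexpression and 3.63 and 0.776 CPM in WT, and IGF2BP2 at 0.131 and 1.64 CPM in leptin overexpression and 1.68 and 0.477 CPM in WT. Of 6 tested IGFBP-related proteins, 2 were positive and 4 negative (median -0.57, but -1.17 without leptin overexpression replicate 1 and -0.15 without leptin overexpression replicate 2). Their most abundant member, the matricellular CCN2, was at 208 and 74.2 CPM in leptin overexpression and 39.1 and 148 CPM in WT. CCN1 was at 111 and 9.94 CPM in leptin overexpression and 14.2 and 60.9 CPM in WT. CCN3 was at 1.5 and 2.62 CPM in leptin overexpression and 9.71 and 8.59 CPM in WT (edgeR adjusted p = 0.273). DESeq2 called CCN3 lower (adjusted p = 0.0416), as it did 1.47% of all genes. So did limma-trend on log2(FPKM + 1) (adjusted p = 0.0191, beside 2.68% of all genes called lower).

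Of 5 tested imprinted genes from the IGF2 and IGF2R regions or related to them, 1 was positive and 4 were negative (median -0.24, but -0.83 without leptin overexpression replicate 1 and 0.19 without leptin overexpression replicate 2). KCNQ1, a potassium channel, was at 623 and 237 CPM in leptin overexpression and 544 and 472 CPM in WT, and PHLDA2, a growth restrainer in placenta, at 16 and 21.7 CPM in leptin overexpression and 7.76 and 20.6 CPM in WT. Among 12 tested genes of the gonadotropin response in follicle cells, 8 were positive and 4 negative (median 0.11). The sign of that median turned with 1 library, to -0.33 without leptin overexpression replicate 1 and -0.16 without WT replicate 1, and it was 0.48 without leptin overexpression replicate 2 and 0.67 without WT replicate 2. NR5A2, a nuclear receptor of granulosa and luteal cells, was at 495 and 559 CPM in leptin overexpression and 656 and 402 CPM in WT. INHA, the inhibin alpha subunit, was at 253 and 137 CPM in leptin overexpression and 565 and 299.7 CPM in WT (log2 fold change -1.15, SE 0.51, edgeR adjusted p = 0.536). It was the 1 gene of these 12 that was lower without overlap, as were 22.9% of all tested genes. limma-trend called INHA lower on log2(FPKM + 1) (adjusted p = 0.0194, beside 2.68% of all genes called lower). It also did so on log2(FPKM + 0.1) (adjusted p = 0.0166, beside 2.86%). The median log2 fold change of all genes in these fits was -0.30 and -0.40.

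**Figure D5:**
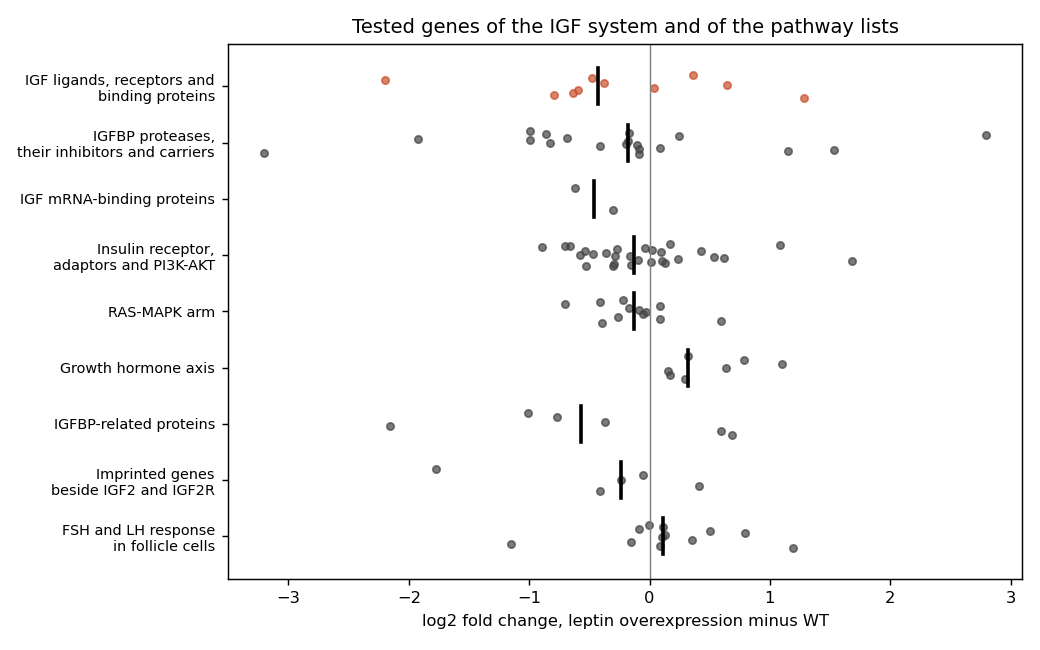
Log2 fold changes (leptin overexpression minus WT) of the 10 IGF system genes (red, top) and of the tested genes of the 8 lists (grey); black bars are medians. The medians run from -0.57 for IGFBP-related proteins to 0.32 for the growth hormone axis with all 4 libraries; with 1 library left out they run from -1.17 to -0.15 and from 0.05 to 0.91.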

How the data were processed

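Poly(A)-enriched RNA of 4 ovary samples was sequenced on an Illumina NovaSeq, per the labels' protocols. The deposited expected counts are, per the file headers, estimates per gene with no depth scaling. The deposited FPKM values carry the authors' scaling to length and fragments. RSEM, StringTie 1.3.1, HISAT2, Bowtie2 2.2.8, fastp 0.18.0, edgeR 3.32.0 and DESeq2 are named in the submitters' processing notes; roles, genome build and strand setting were not given in the sources used here. Control columns were matched to WT samples by number.

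The counts were rounded to whole numbers, filtered with filterByExpr, scaled with TMM factors and tested with the quasi-likelihood test of edgeR 4.0.16 (R 4.3.3; genotype only, robust, 2 residual degrees of freedom), p-values being adjusted over all 13937 tested genes. The SE is the absolute log2 fold change over the square root of F. Where no tool is named, an adjusted p is edgeR's; DESeq2 1.42.0 and limma 3.58.1 gave the others. The edgeR, DESeq2 and limma-voom fits were also run on simulated data, with an outcome that is not reported here. Depth was 16493113 to 16797511 counts per library.

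The members and lists were chosen with earlier results of these data known. The rule named the 10 members, the 2 or 4 most abundant genes of each pathway list, up to 3 of a marker list, and the 3 genes nearest to IGF1, IGF2 and the member with the largest change. Some genes that the rule names are not reported here. FOXJ1, KRT18, MYH11, GHR, LEPR, IGFBP1, INS and genes at 0 were also named after their values were seen. Alternatives were other scaling factors, filters, tools and pseudocounts, a block for the replicate number, and leaving out each library.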

Additional observations from a re-analysis of the deposited data

How the results depend on the processing

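The number of genes past the threshold, 4 with all libraries, was 305 by DESeq2, 252 with no filter, 464 and 487 by limma-trend on log2(FPKM + 1) and log2(FPKM + 0.1), 11 with upper-quartile factors, 1 by limma-voom and 0 to 681 with a library left out. The number of members past it, 0 with all libraries, was 1 by DESeq2, with no filter and by either limma-trend fit. List genes past it numbered 2 by DESeq2 and with no filter, 3 by either limma-trend fit and 0 to 5 with a library left out. The lists held 91 genes tested by edgeR with the filter. Of all genes, DESeq2 called 0.718% higher and 1.47% lower, and edgeR with no filter called 0.47% higher and 0.939% lower. On log2(FPKM + 1), limma-trend called 2.68% of all genes lower and 90 of 13937 higher. On log2(FPKM + 0.1) it called 2.86% lower and 89 of 13937 higher. The list counts were not tested against these shares. IGFBP5 passed at -2.20 (DESeq2), -2.18 (no filter), -2.20 and -2.32 (limma-trend), and ran from -2.87 to -0.98 with a library left out. IGFBP2 turned negative at -0.043 (upper-quartile factors), -0.33 (both limma-trend fits) and ran from -0.37 to 0.55 with a library left out. IGFBP7 was -0.032 by limma-trend on FPKM, IGFBP3 ran from -0.28 to 3.64 and IGFBP4 from -0.96 to 0.21 with a library left out. In CPM, the share differences of IGFBP2, IGFBP5 and IGFBP6 were 0.549, -13.4 and -0.165 percentage points, against -0.601, -5.95 and -1.0 in FPKM. Members without overlap were 1 higher in FPKM; with a library left out 2 to 4 were higher and 4 to 8 lower, beside 31.6 to 39.4% and 31.9 to 40.4% of all genes. The signs of IGF1, IGF2, IGF1R, IGF2R, IGFBP5 and IGFBP6 held under all 13 settings. The causes were not tested; when a library was left out, the lone sample of its group was assumed to vary like the other group. Upper-quartile factors moved the median of all genes to -0.11.

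Replicate numbers pair nothing in the labels, and same-numbered libraries did not deviate together (r = -0.0995 across genes). With the replicate block 23 genes passed and 0 members, with IGFBP5 at -1.92. IGF1 had the lowest depth of the 10 genes, 34 to 87 counts per library.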

Other observations

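The length that the deposited values imply for a gene, its expected count divided by its FPKM and by the library total, was the same in every library for some members and not for others. For IGFBP2 it was 1421 bases in all 4 libraries, and for IGFBP3 it was 2397 bases. For IGFBP6 it was 1050.3 and 1300.2 bases in leptin overexpression and 888 and 1077 bases in WT, and for IGF2 it was 2916 and 2658 bases in leptin overexpression and 3096 and 3106 bases in WT. For IGF1 it was 1063 and 1074 bases in leptin overexpression and 982 and 1250 bases in WT. FPKM and CPM differ for these genes by more than the scaling of the libraries.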
